A study of Homo sapiens with 10 samples.

Results

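Caveolins and cavins are the coat proteins of caveolae, the small flask-shaped pits of the plasma membrane. The genes described here were the caveolins CAV1 and CAV2, the cavins CAVIN1, CAVIN2 and CAVIN3, and EHD2 and PACSIN2, which encode proteins of the neck of the pit. They were taken by name, and every probe set annotated with exactly 1 of these symbols was used, which gave 7 genes of 19775 genes with such a probe set on the array. These 7 genes had 17 probe sets, of which 16 entered the test. The cells were IMR90, a normal human fibroblast line from fetal lung, and RNA was measured on Affymetrix HG-U133 Plus 2.0 arrays, with 5 arrays for each group. Proliferating cells were at 28 population doublings. Senescent cells were at 90 population doublings, had been passaged until growth stopped and were then kept for another 2 weeks. Both groups grew in 3% oxygen with 10% serum, and no other treatment or genetic change is named in the labels. Population doublings, time in culture and growth state all differ between the groups and cannot be told apart. Whether the 5 samples within a group were independent cultures is not stated in the labels. The p-values therefore reflect the sample-to-sample spread alone, and this may be technical.

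Caveolin proteins insert into the inner leaflet of the membrane, bind cholesterol and assemble into oligomers. Cavins are cytosolic proteins that coat these oligomers and stabilise the curved membrane, and EHD2, an ATPase, sits at the neck and holds the pit at the surface. Fibroblasts are rich in caveolae, which flatten when the membrane is stretched, and caveolin protein has long been studied in senescent fibroblasts.

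The arrays formed 2 groups. Correlations between arrays were 0.992 to 0.997 within a group and 0.940 to 0.947 between groups. All 12 fibroblast markers lay above their array's 60th percentile on all 10 arrays, with summed linear signals of 127251 to 149479 in proliferating and 126756 to 138080 in senescent arrays. Endothelial cells, adipocytes and muscle cells are also rich in caveolae. Of their markers, 1 of 10 endothelial genes (TEK, whose probe sets disagree), 1 of 8 adipocyte genes (PPARG) and 3 of 11 muscle genes (MYH11, SMTN and CNN1) lay above that percentile on all arrays, while the defining PECAM1, VWF, CDH5, ADIPOQ, DES and MYOD1 lay below it on all. TEK averaged 9.90 in proliferating and 10.52 in senescent arrays, and its other tested probe set differed by -1.08. The other 9 endothelial genes lay below the percentile on all arrays. Summed linear signals of the endothelial list, carried mostly by that 1 TEK probe set, were 817 to 1081 in proliferating and 1427 to 1666 in senescent arrays. Those of the adipocyte list were 270 to 400 and 200 to 253, and those of the muscle list 258 to 332 and 267 to 296. Of the 9 epithelial markers, 3 lay above the percentile on all arrays (sums of 1218 to 1450 and 959 to 1068), and of 5 leukocyte markers none did (30.5 to 31.3 and 30.8 to 32.7). In bulk RNA, fewer cells of a type and less RNA per cell cannot be told apart. The part of the endothelial, adipocyte and epithelial markers in the results was not tested. One sign of RNA quality moved with the groups: the 3' control of ACTB exceeded its 5' control by 2.07 ± 0.14 log2 units in proliferating and 2.32 ± 0.10 in senescent arrays (mean ± SD, n = 5 each; exact permutation test, two-sided, p = 0.00794, the smallest that 252 assignments allow). For GAPDH the excess was -0.03 ± 0.18 and 0.12 ± 0.09 (exact p = 0.135). The ACTB excess ran from 1.85 to 2.19 in proliferating and from 2.24 to 2.47 in senescent arrays, without overlap. A fit with it as a covariate therefore cannot fully separate RNA quality from growth state, and a call can be lost through a larger SE.

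Most genes of the set were changed in senescent cells, but in unlike directions. Of the 16 tested probe sets, 6 were called higher in senescent cells, 3 lower and 7 in neither direction. Called means an adjusted p under 0.05 in limma. Over all 32732 probe sets tested, 53.0% were called, 26.9% higher and 26.2% lower, so calls among these genes were about as common as on the array at large. The 2 groups did not overlap for 8 of the 16 probe sets, against 44.5% of all. With each gene represented by its tested probe set of highest mean, CAV1, CAV2 and CAVIN1 rose, CAVIN3 and PACSIN2 fell, and CAVIN2 and EHD2 were not called. That is 5 of 7 genes called, against 60.2% of all 12909 genes (30.5% higher and 29.8% lower), and 51.8% of all genes had groups without overlap. The median difference over the 16 probe sets was 0.15 log2 units, against 0.03 over all tested probe sets. The size of these small differences rests on how arrays are scaled. Centring each array on the median level of 19 housekeeping genes lowered every difference by 0.18, and centring on their mean, an alternative added after seeing the data, raised every difference by 0.22. Calls were 50.7% higher over the array as deposited, 34.8% with the first and 74.7% with the second. Under the first CAV2 alone of the 7 genes remained called higher, and under the second CAVIN2 was called higher as well and CAVIN3 was no longer called lower (log2 difference -0.09, adjusted p = 0.42). CAV2 and PACSIN2 kept their call and direction under every scaling, filter and left-out array tried.

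**Figure D1:**
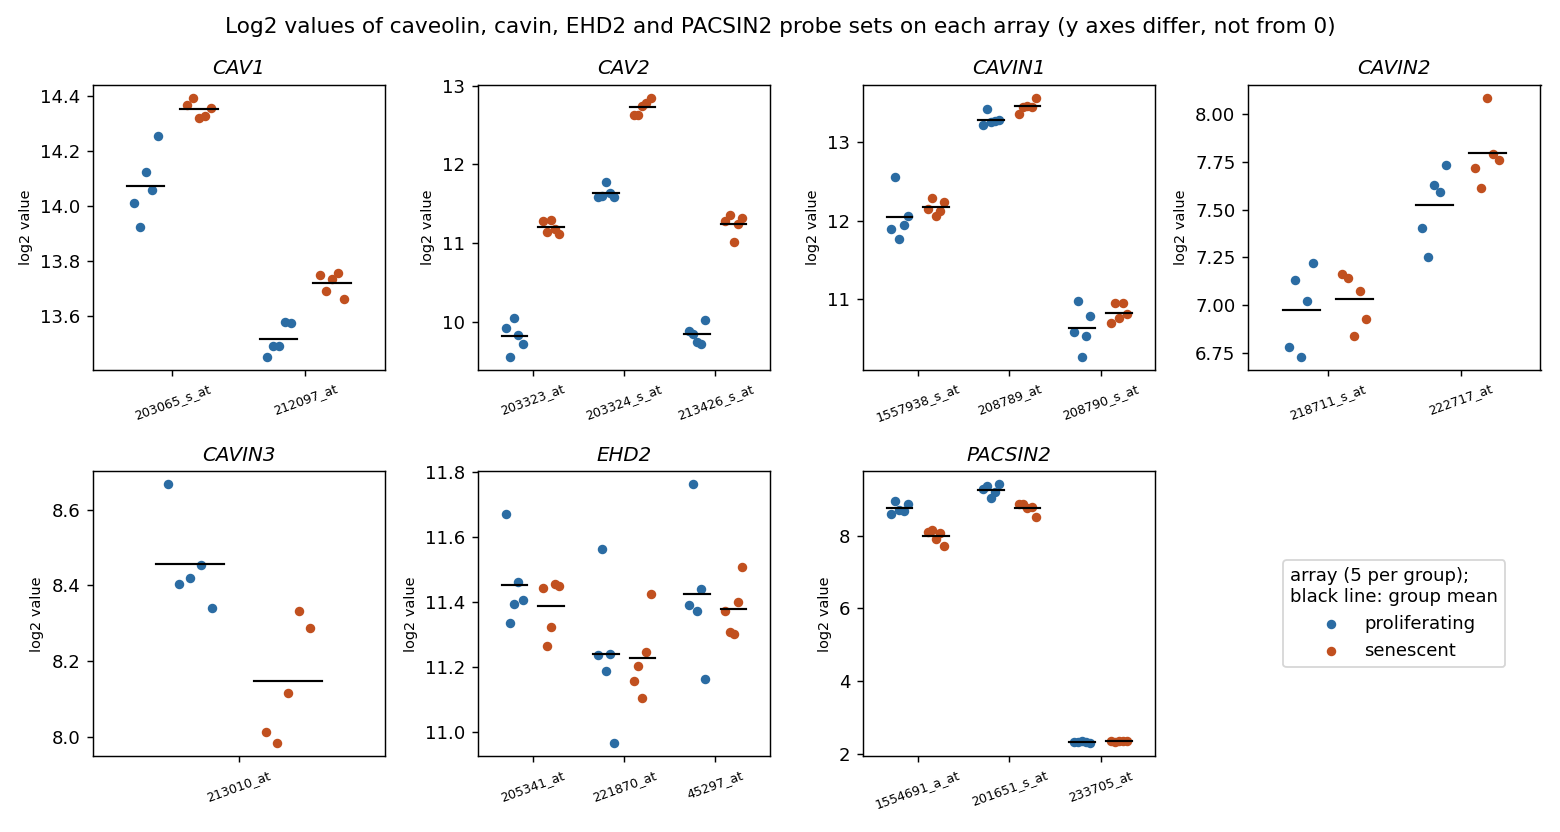
Log2 value (y axis, scales differ and do not start at 0) of each of the 17 probe sets on the 5 proliferating and 5 senescent arrays, by gene. The untested PACSIN2 probe set 233705_at is included, and a black line marks each group mean. The groups stand clear of each other for all 3 CAV2 probe sets, both CAV1 and both tested PACSIN2 probe sets, and overlap for all 3 EHD2 probe sets.

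CAV2 rose by more than any other gene of the set, and its neighbour CAV1, the caveolin without which fibroblasts form no caveolae, rose by little. Both genes lie side by side on chromosome 7. Their promoters, given here as the 250 bases before the annotated start site, are shown because the genes are adjacent and rose by unequal amounts. Sequences are from RefSeq (GRCh38.p14), written 5' to 3' on the strand of the gene, with matches to a GC box (GGGCGG on either strand, bound by SP-family factors) in capitals.
CAV1, chr7:116524759-116525008, + strand: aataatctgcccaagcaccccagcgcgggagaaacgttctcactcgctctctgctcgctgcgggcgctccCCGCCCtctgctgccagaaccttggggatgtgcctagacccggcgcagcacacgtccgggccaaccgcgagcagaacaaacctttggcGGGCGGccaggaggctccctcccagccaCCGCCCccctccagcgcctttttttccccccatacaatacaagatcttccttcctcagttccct
CAV2, chr7:116499488-116499737, + strand: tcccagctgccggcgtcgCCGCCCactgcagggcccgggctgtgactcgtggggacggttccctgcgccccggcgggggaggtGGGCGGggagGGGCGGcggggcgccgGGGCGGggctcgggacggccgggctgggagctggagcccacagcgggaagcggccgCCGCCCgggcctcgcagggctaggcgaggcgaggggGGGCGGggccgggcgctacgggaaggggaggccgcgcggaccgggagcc
The CAV1 stretch held 63.6% G and C, 18 CpG dinucleotides and 3 GC boxes, which began 180, 92 and 64 bases before the start site. The CAV2 stretch held 83.2% G and C, 35 CpG and 6 GC boxes. Over 34943 promoters of that length the median was 58.0% G and C and 11 CpG, and 42.5% held a GC box. The CAV2 stretch had at least as many CpG as 95.2% of these promoters, and the CAV1 stretch as 65.4%. Neither held a match to CCAAT (in 32.0% of promoters), TATAAA (10.8%), TGANTCA, an AP-1 site (6.6%), GGAATG, a TEAD-type site (11.9%), or CACGTG, an E-box (6.3%), on either strand. A match is a description of letters and not a binding site.

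CAV1, the scaffold of the caveolar coat, was strongly detected in both groups. Its probe set 203065_s_at read 14.01, 13.92, 14.12, 14.06 and 14.25 on the proliferating arrays and 14.37, 14.39, 14.32, 14.33 and 14.36 on the senescent arrays. All senescent arrays lay above all proliferating arrays, and the senescent ones lay closer together, with an SD of 0.03 against 0.13. The difference was 0.28 log2 units (SE 0.06, 95% interval 0.15 to 0.41, adjusted p = 0.0027), or 1.21-fold. Probe set 212097_at differed by 0.20 (SE 0.04, adjusted p = 0.0019), from 13.52 ± 0.06 to 13.72 ± 0.04, again without overlap. The call on 203065_s_at was lost with the ACTB control as a covariate (0.23, adjusted p = 0.083), and both calls were lost after centring on the housekeeping median (0.10 and 0.02, adjusted p = 0.41 and 0.82).

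CAV2 encodes the partner that forms mixed oligomers with the CAV1 product and needs it to reach the cell surface. Probe set 203324_s_at read 11.58, 11.59, 11.78, 11.63 and 11.58 on proliferating and 12.62, 12.63, 12.75, 12.79 and 12.85 on senescent arrays. The lowest senescent array stood well above the highest proliferating one. The mean rose from 11.63 ± 0.08 to 12.73 ± 0.10, a difference of 1.09 (SE 0.06, 95% interval 0.96 to 1.23, adjusted p = 1.5e-07), or 2.14-fold. Probe set 203323_at rose by 1.39 (SE 0.09, adjusted p = 5.0e-07), from 9.81 ± 0.19 to 11.20 ± 0.08. Probe set 213426_s_at rose by 1.40 (SE 0.08, adjusted p = 2.0e-07), from 9.84 ± 0.12 to 11.24 ± 0.14. Neither had any overlap between the groups. The changes of 203323_at and 213426_s_at exceeded that of 203324_s_at by 0.29 and 0.31 (exact permutation test, raw p = 0.0238 and 0.0317). Over 12 pairs of probe sets of the same gene both had an adjusted p of 0.13, so unequal changes were not shown. A lone pair at the smallest exact p of 0.00794 has an adjusted p of 0.095 there. Equal changes are therefore not shown either. Over the alternatives that keep a probe set on its own the differences ran from 0.92 to 1.31, 1.11 to 1.61 and 1.23 to 1.62 for 203324_s_at, 203323_at and 213426_s_at.

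The genes next to the caveolins did not move as a block. Neighbours were taken as the nearest tested genes on either side in the RefSeq order, a rule written after the caveolin values were seen. TES, a focal adhesion protein gene on the CAV2 side, fell by 1.16 (SE 0.05, adjusted p = 4.2e-08), from 11.24 ± 0.09 to 10.08 ± 0.05. MET, the hepatocyte growth factor receptor gene on the CAV1 side, differed by 0.11 (SE 0.09, adjusted p = 0.29). Beyond it CAPZA2, a subunit of the actin capping protein, rose by 0.23 (SE 0.05, adjusted p = 0.0017). TFEC, beyond TES, rose by 0.16 (SE 0.06, adjusted p = 0.041) at the low level of 3.17 to 3.32. The differences of TFEC and MET are smaller than the shift of 0.18 that centring on the housekeeping median brings.

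Among the cavins CAVIN1 rose slightly, CAVIN3 fell, and CAVIN2 lay at the edge of the threshold. CAVIN1, without which cells lose caveolae even where caveolin is present, had 3 probe sets. Its representative, 208789_at, read 13.22, 13.42, 13.25, 13.27 and 13.28 on proliferating and 13.36, 13.45, 13.46, 13.44 and 13.56 on senescent arrays. In 4 of 5 senescent arrays the value lay above the highest proliferating one. The difference of 0.17 (SE 0.05, 95% interval 0.05 to 0.29, adjusted p = 0.020) is 1.12-fold, and it became -0.01 after centring on the housekeeping median. The mean of the 3 probe sets differed by 0.17 with an adjusted p of 0.15. Probe set 1557938_s_at differed by 0.13 (SE 0.13, adjusted p = 0.42) and 208790_s_at by 0.20 (SE 0.12, adjusted p = 0.20). Both were highest among proliferating arrays on array 2, at 12.55 and 10.98. Without that array the differences were 0.26 (adjusted p = 0.014) and 0.29 (adjusted p = 0.045), and both were called. With the ACTB covariate each was 0.54, with adjusted p = 0.0034 and 0.0058.

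CAVIN2, a phosphatidylserine-binding cavin linked to membrane tubules, read 7.40, 7.25, 7.63, 7.59 and 7.74 on proliferating and 7.72, 7.61, 8.09, 7.79 and 7.76 on senescent arrays (222717_at). The groups overlapped, and 3 of 5 senescent arrays lay above the highest proliferating one. The difference of 0.27 (SE 0.11, 95% interval 0.03 to 0.52) had an adjusted p of 0.061 and was not called. It was called under 8 of 23 alternatives, among them leaving out proliferating array 5 (0.33, adjusted p = 0.035) or senescent array 2 (0.32, adjusted p = 0.046), and fell to 0.04 with the ACTB covariate (adjusted p = 0.85). The second probe set, 218711_s_at, differed by 0.05 (SE 0.11, 95% interval -0.19 to 0.30, adjusted p = 0.69).

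CAVIN3, the cavin that binds protein kinase C delta, was measured by 213010_at alone. It read 8.67, 8.40, 8.42, 8.45 and 8.34 on proliferating and 8.01, 7.98, 8.11, 8.33 and 8.29 on senescent arrays. No value overlapped, though proliferating array 5 and senescent array 4 were almost level. The difference was -0.31 (SE 0.09, 95% interval -0.50 to -0.12, adjusted p = 0.012), or 1.24-fold lower. With the ACTB covariate the estimate stayed at -0.32, but its SE grew to 0.14 and it was no longer called (adjusted p = 0.099).

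**Figure D2:**
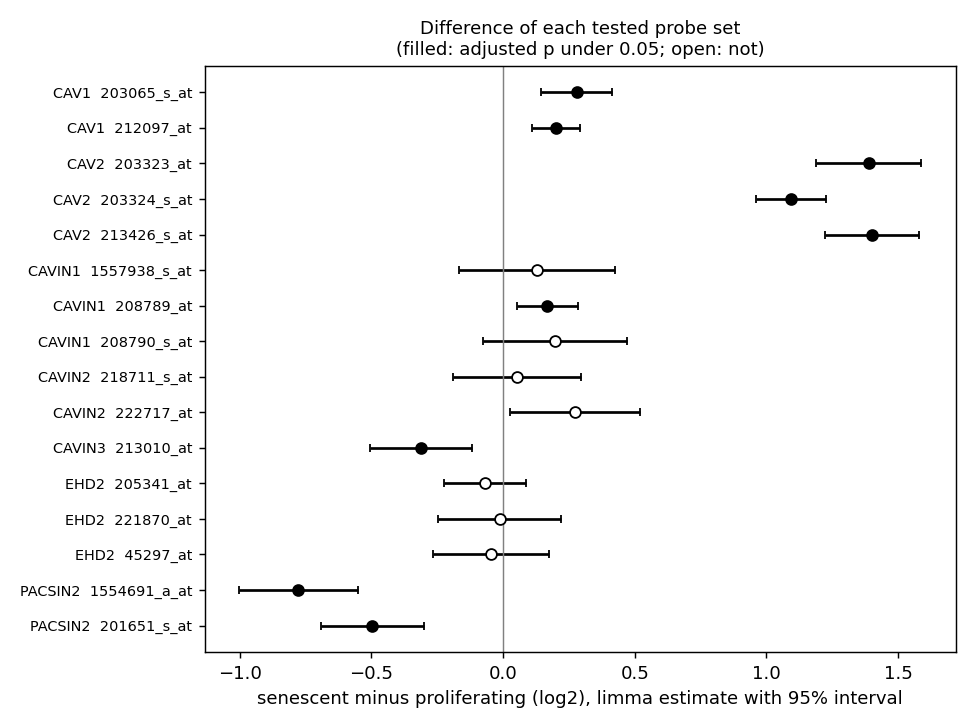
Senescent minus proliferating log2 difference (x axis) of each of the 16 tested probe sets with its 95% interval from limma, filled where the adjusted p is under 0.05. The 3 CAV2 probe sets stand near and above 1, CAV1 and CAVIN1 lie between 0.13 and 0.28, and the CAVIN3 and PACSIN2 probe sets are the filled points below 0.

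EHD2 was not called by any of its 3 probe sets. Probe set 205341_at read 11.67, 11.33, 11.39, 11.46 and 11.41 on proliferating and 11.44, 11.26, 11.32, 11.45 and 11.45 on senescent arrays. The groups lay on top of each other, with a difference of -0.07 (SE 0.07, 95% interval -0.22 to 0.09, adjusted p = 0.43). The interval leaves room for a change of that size in either direction but not for one like that of CAV2. The other probe sets, 221870_at and 45297_at, differed by -0.01 (SE 0.10) and -0.05 (SE 0.10). Their deviations from the group means ran in parallel over the 10 arrays (Pearson r = 0.97), so they are close to a single measurement. Centring on the housekeeping mean turned the sign of all 3 (0.15, 0.20 and 0.17), again without a call.

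PACSIN2, an F-BAR protein that bends membrane at the caveolar neck, fell. Its promoter is shown because PACSIN2 alone beside CAV2 kept its call throughout, and in the opposite direction, with matches to the GC box and to CCAAT, bound by NF-Y, in capitals.
PACSIN2, chr22:43015150-43015399, - strand: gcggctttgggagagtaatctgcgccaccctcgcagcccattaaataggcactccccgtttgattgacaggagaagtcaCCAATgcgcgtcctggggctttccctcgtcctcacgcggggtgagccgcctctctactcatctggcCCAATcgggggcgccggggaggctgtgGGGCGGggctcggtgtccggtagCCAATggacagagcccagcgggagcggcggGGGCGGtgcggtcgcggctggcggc
The stretch held 3 CCAAT matches, which began 171, 105 and 55 bases before the start site, and 2 GC boxes, with 68.0% G and C and 24 CpG. Neither caveolin stretch held CCAAT. Of the other members, the EHD2 stretch had 1 GC box and no CCAAT, and the CAVIN2 stretch had neither, 4 CpG and 1 GGAATG match 16 bases before the start site. None of the 5 stretches examined held the TATA box, AP-1 or E-box letters given above.

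Probe set 201651_s_at of PACSIN2 read 9.29, 9.38, 9.06, 9.23 and 9.42 on proliferating and 8.89, 8.89, 8.78, 8.81 and 8.54 on senescent arrays. All senescent arrays lay below all proliferating ones. The mean fell from 9.27 ± 0.14 to 8.78 ± 0.14, a difference of -0.50 (SE 0.09, 95% interval -0.69 to -0.30, adjusted p = 7.9e-04), or 1.41-fold lower. Probe set 1554691_a_at read 8.60, 8.98, 8.72, 8.70 and 8.88, then 8.11, 8.16, 7.92, 8.08 and 7.71. It fell by 0.78 on the log2 scale (SE 0.10, adjusted p = 9.0e-05), or 1.71-fold. The difference of 0.28 between both falls had the smallest p that 252 assignments allow (exact permutation p = 0.00794), and its groups did not overlap. Over the 12 pairs its adjusted p was 0.095. A lone pair at the smallest p cannot pass this adjustment, so the test could not decide whether the falls were unequal. A further probe set, 233705_at, read 2.29 to 2.35 on all arrays and lay below the 40th percentile, so it was not tested.

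**Figure D3:**
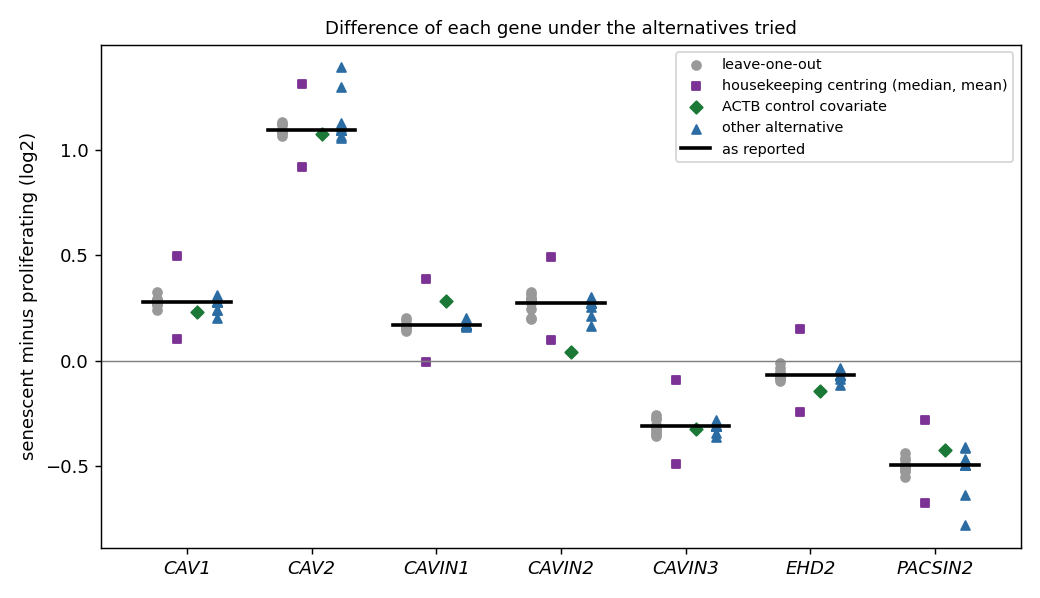
Senescent minus proliferating log2 difference (y axis) of each gene: a black bar for the reported value of its representative probe set, points for leaving out each array, for centring on the median or mean of housekeeping genes, for the ACTB covariate and for the other alternatives, where the mean of the gene's probe sets or another probe set can stand in. CAV2 stays between 0.92 and 1.39 and PACSIN2 between -0.78 and -0.28, with 1.39 and -0.78 from the stand-ins 203323_at and 1554691_a_at, whereas CAVIN1 and EHD2 have points on both sides of 0.

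Whether the genes changed by different amounts was tested directly on the difference between both genes on each array, a quantity that adding a constant to all values of an array does not alter. Of 21 pairs, 17 differed (exact permutation test, two-sided, adjusted p under 0.05 over the 21 pairs). In 14 of these 17 the groups did not overlap. The pairs share genes and are not independent of each other. Over all genes 60.2% were called and 51.8% had groups without overlap. How often pairs of other genes differ was not tested, so these counts are not shown to be particular to the caveola genes. CAV2 changed more than each of the other 6 genes: by 0.82 against CAV1 (SE 0.08) and CAVIN2 (SE 0.11), 0.93 against CAVIN1 (SE 0.06), 1.16 against EHD2 (SE 0.09), 1.40 against CAVIN3 (SE 0.08) and 1.59 against PACSIN2 (SE 0.14), each with an exact adjusted p of 0.0119. So the measured levels of the caveolin messages shifted against each other, with CAV2 gaining on CAV1. The CAV1 probe set read near the top of the array, with 0.20 to 0.50% of probe sets above it. Whether signals that high are compressed was not tested, so the size of this shift is uncertain. CAV1 also stood apart from EHD2 by 0.35 (SE 0.10) and from CAVIN3 by 0.59 (SE 0.12), both with an exact adjusted p of 0.0119. Within the cavins, CAVIN1 and CAVIN2 differed from CAVIN3 by 0.48 (SE 0.10) and 0.58 (SE 0.15), both with an exact adjusted p of 0.0119. CAVIN3 differed from EHD2 by -0.24 (SE 0.06, exact adjusted p = 0.0119), a difference that centring of arrays does not alter. The 4 pairs that did not pass were CAV1 against CAVIN1 (0.11, SE 0.09), CAV1 against CAVIN2 (0.01, SE 0.10), CAVIN1 against CAVIN2 (-0.10, SE 0.14) and CAVIN3 against PACSIN2 (0.19, SE 0.15), with exact adjusted p from 0.289 to 0.952. These values do not show that the pairs change alike.

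Variation between arrays of a group was then compared with CAV1, over the 10 arrays after removing the group means. The genes most like CAV1 among 12908 were CUL3 (Pearson r = 0.96), ENC1 (0.96), CAMK2D (0.95), SEMA3D (0.95) and EMG1 (0.95), chosen as the highest of many. Among the caveola genes CAVIN2 came nearest (r = 0.54, rank 1667), and CAV2 was at -0.01, PACSIN2 at 0.04, EHD2 at -0.13, CAVIN1 at -0.36 and CAVIN3 at -0.38. All values share the same 10 arrays and their scaling, and are a description only.

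Partners and paralogues of these proteins were read from a list of 18 genes, of which 14 were tested. Of these 3 rose, 4 fell and 7 were not called, where 30.5% of all genes were higher and 29.8% lower, with a median of -0.05 against 0.04 over all genes. CAVIN4, the cavin known from striated muscle, rose from a low level: it read 5.89, 4.90, 5.93, 5.92 and 6.16 on proliferating and 7.59, 7.75, 8.18, 7.59 and 7.69 on senescent arrays. The groups stood far apart, by 2.00 (SE 0.22, adjusted p = 3.1e-05), and by 1.39 with the ACTB covariate. The muscle genes DES, MYOD1, MYOG, ACTA1 and CKM were below the 60th percentile on all arrays of both groups, and MYH11, SMTN and CNN1 were above it on all. Of the 4 muscle markers tested, LMOD1 rose by 0.73 (SE 0.22, adjusted p = 0.016), and SMTN and CNN1 were not called. The probe sets of MYH11 disagree. Its representative fell by 0.72 (SE 0.21, adjusted p = 0.013), while 3 of its 4 tested probe sets were called higher, by up to 0.71. The part of these genes in the CAVIN4 result was not tested. CAV3, the muscle caveolin, read 1.74 to 1.78 on all arrays and was not tested. PACSIN3, the paralogue of PACSIN2, fell as well: 7.47, 7.84, 7.32, 7.39 and 7.36 on proliferating arrays stood against 6.12, 6.20, 6.21, 6.23 and 5.83 on senescent ones, a difference of -1.36 (SE 0.11, adjusted p = 3.2e-06).

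The other called partners moved less. EHD3, a paralogue of EHD2, rose by 0.42 (adjusted p = 0.021), and by 0.24 as the mean of its probe sets. The call was lost without senescent array 1, 2 or 3, where the difference stayed at 0.37, 0.39 and 0.38 (highest adjusted p = 0.052). It was also lost after centring on the housekeeping median (0.24, adjusted p = 0.19) and with the ACTB covariate (0.10, adjusted p = 0.66). Of the kinases that phosphorylate caveolin, FYN rose by 0.74 (adjusted p = 6.6e-04), but its probe sets not named as shared gave 0.07 (adjusted p = 0.21). ABL1 fell by 0.39 (adjusted p = 0.0061; -0.13 and not called with the ACTB covariate) and YES1 by 0.24 (adjusted p = 0.0087), while SRC differed by -0.02 (SE 0.11). EHD4 was the remaining gene called lower (-0.18, adjusted p = 0.014; its 5 tested probe sets ran from -0.54 to 0.09), below the shift of 0.22 from centring on the housekeeping mean.

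**Figure D4:**
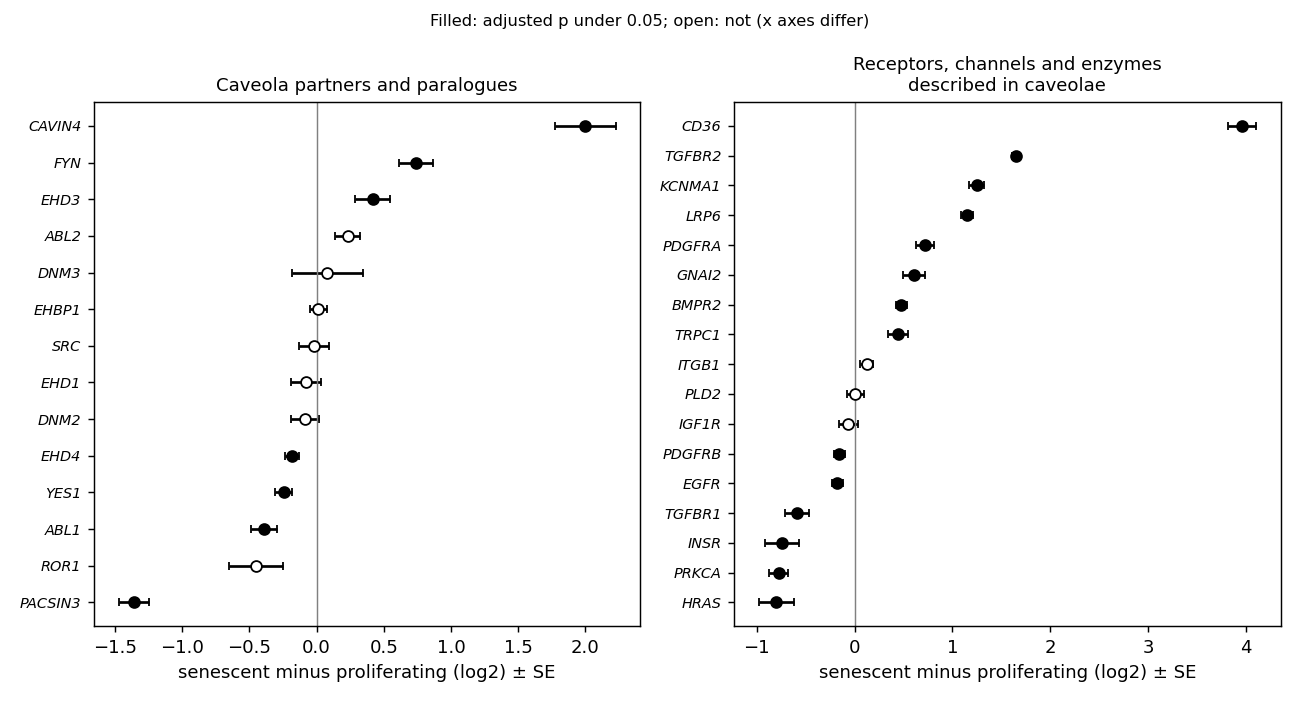
Senescent minus proliferating log2 difference ± SE (x axis, scales differ) of tested partners and paralogues on the left and of receptors, channels and enzymes described in caveolae on the right, filled where the adjusted p is under 0.05. CAVIN4 at 2.00 and PACSIN3 at -1.36 are the extremes of the left panel, and TGFBR2 stands at 1.65 in the right one, where the size of the CD36 point, set against arrays at the low end, is not read.

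Of 18 receptors, channels and enzymes described in caveolae, 17 were tested: 8 rose, 6 fell and 3 were not called, with a median of 0.13. Over all genes 60.2% were called, 30.5% higher and 29.8% lower. The fatty acid receptor CD36 read 2.76 to 2.81 on proliferating and 6.26 to 7.15 on senescent arrays (206488_s_at). Every senescent array lay above every proliferating one, and CD36 was called higher (adjusted p = 8.8e-09). The proliferating arrays lay below the 60th percentile, so no size of the rise is given. Of its 4 tested probe sets 3 were called higher. TGFBR2, the type II TGF-beta receptor whose internalisation by caveolae is well described, rose by 1.65 (SE 0.04, adjusted p = 1.0e-09), and the potassium channel KCNMA1 by 1.25 (SE 0.08, adjusted p = 3.0e-07), whose 4 tested probe sets ran from 0.05 to 1.47. HRAS fell by 0.80 (SE 0.18, adjusted p = 0.0032), PRKCA by 0.78 (SE 0.10, adjusted p = 8.3e-05) and the insulin receptor INSR by 0.74 (SE 0.18, adjusted p = 0.0049), whose 4 tested probe sets ran from -1.57 to -0.20. TGFBR1, which pairs with TGFBR2, fell by 0.59 (SE 0.12, adjusted p = 0.0022). Its 3 tested probe sets, all called lower, ran from -1.71 to -0.59. With the ACTB covariate 3 of these genes were called lower in place of 6.

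Other membrane domain and uptake systems were read from further lists, again to be set against 30.5% of all genes higher and 29.8% lower. The first held 11 genes, all tested: flotillins, stomatins, prohibitins and erlins, a family that scaffolds flat membrane domains, and LRRC59, a protein of the endoplasmic reticulum outside that family. In it 4 rose and 4 fell, and 2 and 2 without shared probe sets. STOML1 (1.54), STOM (1.06) and ERLIN2 (0.48) had the highest values, though the 3 tested probe sets of ERLIN2 ran from -0.32 to 0.48. STOML2 (-0.84), ERLIN1 (-0.81) and PHB2 (-0.74) had the lowest, and LRRC59 was the remaining one called lower.

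Of 31 tested clathrin pathway genes 15 rose and 4 fell, but 5 were called higher after centring on the housekeeping median, 24 after centring on its mean and 8 with the ACTB covariate. The clearest changes were in genes below the 60th percentile in one group, for which no size is given. DNAJC6, an auxilin that uncoats clathrin vesicles, averaged 2.87 in proliferating and 8.20 in senescent arrays, and AMPH, an amphiphysin, averaged 6.25 and 2.12 (adjusted p = 1.2e-11 and 8.3e-09). SYNJ1 rose by 1.50, though its 3 tested probe sets ran from 0.05 to 1.61, and NECAP1 by 1.22. SNX18 fell by 0.28 and ITSN1 by 0.23, the latter with 5 tested probe sets from -0.33 to 0.13.

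Of 21 tested BAR domain genes, relatives of PACSIN2, 8 rose and 7 fell. MTSS1 rose by 1.28 (3 tested probe sets from 0.37 to 1.28) and PSTPIP2 by 0.93. ARHGAP26 was called higher below the 60th percentile of both groups, and ARHGAP42 (-2.06), GAS7 (-1.90) and APPL1 (-1.13) fell. The number called higher in this list was 4 after centring on the housekeeping median, 14 with the mean and 3 without shared probe sets.

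Cholesterol is the lipid that caveolins bind. Of 17 tested genes of its uptake, transport and regulation (the last including SREBF2, SCAP, INSIG1 and INSIG2) 11 rose and 3 fell. Over all genes 30.5% were higher and 29.8% lower. In this list 6 were called higher after centring on the housekeeping median and 7 with the ACTB covariate or without shared probe sets. NPC1, the lysosomal cholesterol exporter, read 8.54 to 8.84 on proliferating and 10.90 to 11.13 on senescent arrays, a rise of 2.33 (SE 0.07, adjusted p = 2.1e-09). As the mean of its 4 tested probe sets, which ran from 0.17 to 2.33, the rise was 1.31. NPC2 rose by 0.97 and SREBF2 by 0.72, the latter with 3 tested probe sets from -0.13 to 0.72. The exporter ABCG1 fell by 2.62 in its representative (SE 0.48, adjusted p = 9.2e-04), whose proliferating arrays varied widely (SD 1.15). In its other tested probe set ABCG1 fell by 0.33. VLDLR fell by 1.18 and INSIG1 by 0.57.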

How the data were processed

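Trizol extraction and biotin labelling preceded hybridisation, per the labels' protocols. The authors deposited 1 log2 value per probe set and array; the submitters' processing notes name GCRMA and Partek without versions or settings, and the base of the logarithm was inferred from the value range. Such values can compress low signals. Array medians were 3.05 to 3.12. Probe sets were named from the platform annotation, updated by gene identifier to RefSeq symbols. Of 54675 probe sets, 62 controls, 11721 without a symbol and 1801 with several symbols were not used for genes. Non-control probe sets that exceeded the 40th percentile of the array in 5 or more arrays were tested two-sided in limma 3.58.1 (R 4.3.3; lmFit and eBayes, no covariate), with Benjamini-Hochberg adjustment over all 32732 and a threshold of 0.05. For genes with several tested probe sets, the one of highest mean stood for the gene. Single values and pairs had exact permutation tests. Named genes were all members, from each list up to 3 called genes per direction with the largest difference, and 5 genes most like CAV1; SRC, TGFBR1, EHD4, LRRC59 and 4 muscle markers were added after their values were seen. The members and lists were chosen with earlier results of these data known, so they are no independent evidence. The fit was tested on simulated data. CAVIN1 and CAVIN3 promoters, FLNA, and proteins were not used here. Alternatives were other filters, scalings, a replicate block, trend and robust moderation, array weights, the ACTB covariate, other handling of a gene's probe sets, 4 against 4 arrays (without proliferating 2 and senescent 5), and leaving out each array. The number of arrays limits the precision.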

Additional observations from a re-analysis of the deposited data

Results flagged for a closer look

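In 8 of 82 groups of 5 arrays examined, covering the 16 caveola probe sets and the neighbours, partners and caveolar receptors called or given above, 1 array stood apart from the other 4 by a gap above Dixon's critical share of 0.71 of the range. Chance alone gives about 1 in 20. For CAV2 (203324_s_at) this was proliferating array 3 at 11.78, 0.15 above the next, a share of 0.742. CAVIN4 had proliferating array 2 at 4.90, 0.98 below the next (share 0.78), and senescent array 3 at 8.18, 0.43 above the next (share 0.729). For MET it was senescent array 5 at 10.77 (share 0.804), and for PACSIN3 the same array at 5.83 (share 0.731). EHD4 had senescent array 4 at 9.81 (share 0.74), TGFBR1 had proliferating array 5 at 10.20 (share 0.714), and YES1 had senescent array 3 at 12.05 (share 0.723). Leaving out any 1 array kept CAV2 between 1.06 and 1.13 and CAVIN4 between 1.78 and 2.10.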

How the results depend on the processing

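CAV2 and PACSIN2 kept direction and call in every tested probe set under all alternatives run. Centring on the housekeeping median gave CAV1 0.10, CAVIN1 -0.00748 (208789_at) and -0.0467 (1557938_s_at) and CAVIN2 -0.12 (218711_s_at), with 3 probe sets and 1 gene called higher. Centring on the housekeeping mean gave CAVIN2 0.49, CAVIN3 -0.0932 and EHD2 0.15, 0.20 and 0.17, with 10 probe sets higher and 1 gene lower. The list spanned -1.82 to 1.01, and its members do not move alike. With the ACTB covariate CAV1 was 0.23, CAVIN3 -0.32 and EHD2 0.22 (221870_at) and 0.16 (45297_at), with 1 gene lower. CAVIN2 (222717_at) passed with the 60th percentile filter (0.27), centring on tested probe sets (0.30), quantile normalisation (0.29), array weights (0.25) and the replicate block (0.27, adjusted p = 0.025), and the block changed no other call among the 16 probe sets. With it 2 clathrin genes were called lower in place of 4. EHD2 221870_at became 0.0193 after centring on tested probe sets, and 0.0195 with 4 against 4 arrays (45297_at: 0.00455). Averaging a gene's probe sets gave CAVIN1 0.17, not called. Same-numbered arrays did not deviate together (correlations -0.06 to 0.09), which does not exclude a pairing that acts on single genes. The block lowered the SE of CAVIN2 (222717_at) from 0.110 to 0.075 and raised that of CAVIN3 from 0.087 to 0.098. The cause of these changes was not tested.

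Leaving out 1 array gave 6 to 8 probe sets higher and 3 lower, 3 to 4 genes higher and 2 lower, and 13 to 17 unequal pairs. Differences ran from 0.24 to 0.32 for CAV1, 0.14 to 0.20 for CAVIN1 (highest adjusted p = 0.0497), 0.20 to 0.33 for CAVIN2 (218711_s_at: -0.00817 to 0.11), -0.36 to -0.26 for CAVIN3, -0.10 to -0.01 for EHD2 (221870_at: -0.0808 to 0.0689; 45297_at: -0.113 to 0.0372) and -0.55 to -0.43 for PACSIN2. Among lists, centring on the housekeeping mean gave 5 partners higher and 1 lower. Averaging probe sets gave 5 partners higher, and omitting shared ones 2 lower. Pairs were not tested under the block, moderation, weights or covariate, since the exact test takes none. With 5 arrays a group, differences of the size seen for EHD2 were not detectable.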
